A study of Homo sapiens with 4 samples.

Results

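JAK kinases and STAT transcription factors were examined in NUDUL1 cells, a human line of diffuse large B cell lymphoma of the germinal center type (GCB-DLBCL). The members were the 9 genes of these families named for the purpose, JAK1, JAK2, JAK3, TYK2, STAT2, STAT3, STAT5A, STAT5B and STAT6, found by symbol among 25066 genes. RNA was sequenced from 2 libraries labelled control and 2 labelled GNA13-deficient, numbered replicates 1 and 2 of each genotype. The cells of all 4 libraries received U46619 at 10 nM for 24 h, so the comparison asks how the genotypes differed under U46619 and holds no unstimulated cells. U46619, a lasting mimic of thromboxane A2, stimulates the receptor Tbxa2r, which couples to Gα13, the product of GNA13. Both genotypes came from a dilution clone with doxycycline-inducible Cas9, had been transduced with Tbxa2r and sorted on its Thy1.1 reporter, and expressed either a control sgRNA or 1 sgRNA against GNA13. Nothing in the labels says that the 2 libraries of a genotype came from separate experiments, so the p values measure the spread between these libraries, which may be technical. Total mapped reads were 29209544 and 31537955 in the control libraries and 30141459 and 29685942 in the GNA13-deficient libraries. In bulk RNA, fewer cells with a transcript and less transcript per cell cannot be told apart.

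The targeted gene was not lower in the libraries labelled GNA13-deficient. The log2 values of GNA13 were 12.46 and 12.45 in control and rose to 13.10 and 13.11 in those libraries (difference 0.65, standard error 0.05, adjusted p = 0.00214 from limma). The labels were therefore not checked by this mRNA, and every direction given for the GNA13-deficient genotype refers to libraries labelled so. Differences are log2 values of GNA13-deficient minus control from limma fitted to 16945 genes, with Benjamini-Hochberg adjustment over them and a threshold of 0.05.

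JAKs are tyrosine kinases bound to the inner parts of cytokine receptor chains. When a cytokine brings its receptor chains together, the JAKs phosphorylate the receptor and the STATs docked on it, and the STATs pair, enter the nucleus and bind DNA. In B cells, JAK1 and JAK3 serve the receptors of IL-4 and IL-21, TYK2 and JAK1 serve type I interferon receptors, STAT6 carries the IL-4 signal and STAT3 the signals of IL-10 and IL-21. STAT2 acts with IRF9 in the interferon response, and STAT5A and STAT5B are close paralogs used by many cytokines. Phosphorylation was not measured, and all values here are transcript levels.

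The closeness of STAT5A and STAT5B bears on how their reads can be assigned, so a stretch of each is shown where the sequences are nearly the same. In GENCODE transcripts (GRCh37), the 2382 coding bases of STAT5A and the 2361 of STAT5B were 88.91% identical over 2345 aligned bases. The longest run of identical sequence held 429 bases, all coding, from base 675 to 1103 of the STAT5A transcript and from base 718 to 1146 of the STAT5B transcript. The windows below hold the last 60 bases of that run and the next 60, written 5′ to 3′, with the base that differs in capitals.
STAT5A, transcript bases 1044 to 1163: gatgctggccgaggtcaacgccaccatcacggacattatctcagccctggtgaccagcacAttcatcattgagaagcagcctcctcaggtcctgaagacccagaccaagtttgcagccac
STAT5B, transcript bases 1087 to 1206: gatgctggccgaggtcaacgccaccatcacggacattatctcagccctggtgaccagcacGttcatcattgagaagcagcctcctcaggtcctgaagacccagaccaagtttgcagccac
Of 3721 stretches of 50 bases in STAT5A, 562 (15.1%) also occurred in STAT5B, and 507 of 5030 (10.08%) in STAT5B also occurred in STAT5A. These shares hold for reads of 50 bases, the length in the labels. The methods give longer paired reads, for which no share was computed. A read of 50 bases from such a stretch could be counted for either gene or dropped, and how the counting treated it is not given in the sources used here. In the canonical transcripts of JAK1, JAK2 and TYK2 no stretch of 50 bases occurred in a transcript of another gene, and in the other canonical transcripts the shares were 2.42% in JAK3, 1.56% in STAT3, 1.40% in STAT2 and 0.511% in STAT6.

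STAT5A and STAT5B lie side by side on chromosome 17, and STAT3 is next to them. In hg19, the build of the deposited values, STAT5A spans chr17:40439565-40463961 on the plus strand, STAT5B chr17:40351194-40440651 on the minus strand and STAT3 chr17:40465342-40540558 on the minus strand. STAT5A and STAT5B overlap by 1087 bases on opposite strands, of which 415 are exonic in both. JAK1 shares 647 exonic bases with LINC01359, a long noncoding RNA gene on the same strand, which strand would not resolve. STAT2 (chr12:56735381-56753987) and STAT6 (chr12:57489191-57525922) share chromosome 12, and STAT6 overlaps exons of NAB2 by 69 bases and of LRP1 by 59 bases on the other strand. The kinases are spread over chromosome 1 (JAK1, chr1:65298906-65533437), chromosome 9 (JAK2, chr9:4984390-5129948) and chromosome 19 (TYK2, chr19:10461209-10491284, and JAK3, chr19:17935589-17958880). The library kit keeps strand, but whether strand was used in counting is not given in the sources used here, so reads in these overlaps cannot be assigned with certainty.

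Of the 5 STAT transcripts 4 were lower in the GNA13-deficient genotype, and the 4 JAK transcripts passed the test in neither direction. STAT5A, STAT2, STAT6 and STAT3 fell, STAT5B did not pass, and 0 of the 4 kinases passed in limma, although 3 of them (JAK1, JAK2 and JAK3) had an unadjusted p under 0.05. JAK1 was called lower under 6 of 10 alternatives that kept 4 libraries, JAK2 lower under 2 and JAK3 higher under 3. Thus 4 of the 9 members were called, all lower, where 29.7% of all genes tested were called in either direction and 16.6% were called lower. The mean of each member exceeded the median gene's, and among the 8473 genes in that upper range 39.0% were called and 17.7% were called lower. The genotypes did not overlap for 8 of the 9 members, against 65.3% of all genes, so non-overlap by itself was common in these libraries. Of these 8, JAK1, JAK2 and the 4 called STATs were lower and JAK3 and TYK2 higher, where 34.0% of all genes were lower and 31.3% higher without overlap. The plot of log2 values by library shows the wide drop of STAT5A and STAT2 beside the narrow spread between replicates.

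**Figure D1:**
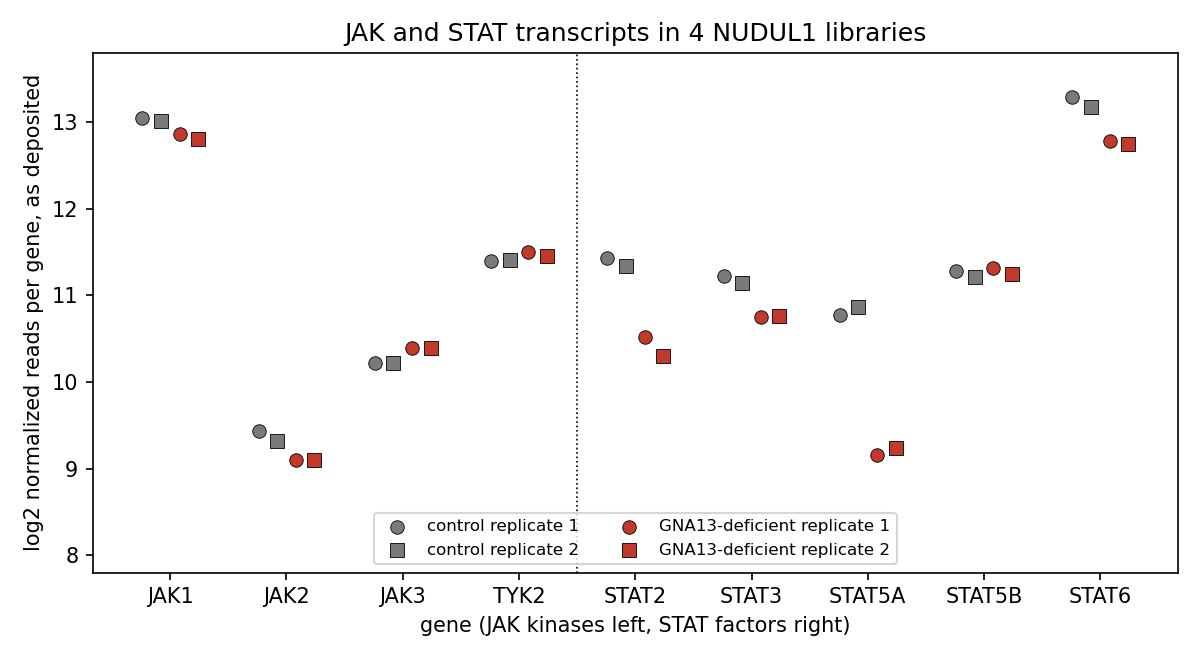
Deposited log2 normalized reads (vertical axis) of the 4 JAK kinases and 5 STAT factors (horizontal axis) in each library, with control in grey, GNA13-deficient in red, replicate 1 as circles and replicate 2 as squares. STAT5A fell from 10.77 and 10.87 to 9.16 and 9.24, while the 4 points of STAT5B overlap between 11.22 and 11.32.

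STAT5A had the largest change of the 9. Its log2 values were 10.77 and 10.87 in the control libraries and 9.16 and 9.24 in the GNA13-deficient libraries, from 1717, 1903, 557 and 562 reads. Both control libraries were far above both GNA13-deficient libraries, with 1.53 between the nearest values and at most 0.10 between replicates. The difference was −1.62 (standard error 0.07, 95% interval −1.80 to −1.44, adjusted p = 0.000950 from limma), so that 32.5% of the control level remained. STAT5A was called under each of the 10 other processing choices that used all 4 libraries, with differences from −1.67 to −1.41.

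STAT5B, its paralog and neighbour, was the 1 member whose genotypes overlapped. It had log2 values of 11.28 and 11.22 in the control libraries and 11.32 and 11.25 in the GNA13-deficient libraries. The GNA13-deficient values lay on either side of the higher control value. The difference was 0.03 (standard error 0.06, 95% interval −0.11 to 0.18, adjusted p = 0.710 from limma), an interval that leaves room for a small change in either direction. Within each library, the log2 ratio of STAT5A to STAT5B was −0.51 and −0.35 in control and −2.16 and −2.01 in GNA13-deficient cells, a change of −1.65. The exact permutation test of that ratio gave p = 0.333 (two-sided), the smallest that 2 libraries against 2 allow. Per kb of the canonical transcript, STAT5A made up 50.02% ± 1.98 (SD, n = 2) of STAT5A plus STAT5B reads in control and 24.1% ± 1.32 in GNA13-deficient libraries. These shares depend on the length used. Per kb of all annotated exons, means were 283 for STAT5A and 201 for STAT5B in control, and 92.1 and 206 in GNA13-deficient libraries.

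STAT2, the partner of IRF9 in interferon signaling, had the next largest change. It had log2 values of 11.43 and 11.34 in the control libraries and 10.52 and 10.30 in the GNA13-deficient libraries, from 2708, 2626, 1429 and 1175 reads. Its GNA13-deficient replicates were 0.21 apart, the widest gap between replicates of any member, and both lay well below the control libraries. The difference was −0.97 (standard error 0.09, 95% interval −1.20 to −0.74, adjusted p = 0.00298 from limma), which left 51.03% of the control level.

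STAT6, the factor of IL-4 signaling, had log2 values of 13.29 and 13.18 in the control libraries and 12.79 and 12.74 in the GNA13-deficient libraries, from 9836, 9439, 6878 and 6377 reads. Both GNA13-deficient libraries were lower, by more than the gap between replicates. The difference was −0.47 (standard error 0.06, 95% interval −0.63 to −0.31, adjusted p = 0.00741 from limma). STAT3, which carries IL-10 and IL-21 signals, had log2 values of 11.22 and 11.14 in the control libraries and 10.76 and 10.77 in the GNA13-deficient libraries. The GNA13-deficient replicates of STAT3 nearly coincided and lay below both control libraries. Its difference was −0.42 (standard error 0.06, 95% interval −0.57 to −0.28, adjusted p = 0.00734 from limma). On the deposited scaling STAT6 and STAT3 kept 72.2% and 74.6% of their control levels, and centring each library on its median, described below, gave smaller differences. The log2 ratio of STAT6 to STAT3 was 2.07 and 2.04 in control and 2.03 and 1.98 in GNA13-deficient libraries, a change of −0.05.

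The calls of STAT3, STAT6 and STAT2 were lost under some settings. Without a mean-variance trend, the adjusted p was 0.0572 for STAT3 and 0.0547 for STAT6, and without a filter on low values it was 0.0519 for STAT2 and 0.0565 for STAT6, with the differences unchanged. With any 1 library left out, limma called 0 genes of the table, while 5257 to 5600 had an unadjusted p under 0.05, and the 4 STATs stayed lower.

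JAK1 and JAK2 had lower values in the GNA13-deficient libraries without passing the threshold. JAK1, used by most cytokine receptors of lymphocytes, had log2 values of 13.05 and 13.02 in the control libraries and 12.86 and 12.81 in the GNA13-deficient libraries. The genotypes did not overlap. The difference was −0.20 (standard error 0.05, 95% interval −0.34 to −0.06, adjusted p = 0.0512 from limma), and the adjusted p lay just above the threshold. JAK2, which serves receptors such as those of erythropoietin and IL-3, had log2 values of 9.44 and 9.31 in the control libraries and 9.10 and 9.11 in the GNA13-deficient libraries. Its difference was −0.28 (standard error 0.08, 95% interval −0.48 to −0.07, adjusted p = 0.0589 from limma). JAK2 had 682, 647, 534 and 512 reads, and counting alone gives an error of 4.42% at the lowest of them.

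JAK3 and TYK2 had values on the other side of 0. JAK3, the kinase of the common gamma chain IL2RG, had a log2 value of 10.22 in both control libraries and values of 10.40 and 10.39 in the GNA13-deficient libraries. Replicates of JAK3 were nearly identical, and the difference was 0.18 (standard error 0.05, 95% interval 0.04 to 0.32, adjusted p = 0.0678 from limma). TYK2, a kinase of the type I interferon receptor, had log2 values of 11.40 and 11.41 in the control libraries and 11.50 and 11.45 in the GNA13-deficient libraries. Its genotypes were 0.05 apart at the nearest values, and the difference was 0.07 (standard error 0.05, 95% interval −0.06 to 0.21, adjusted p = 0.347 from limma). Changes of the size seen in STAT5A lay outside the intervals of all 4 kinases.

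**Figure D2:**
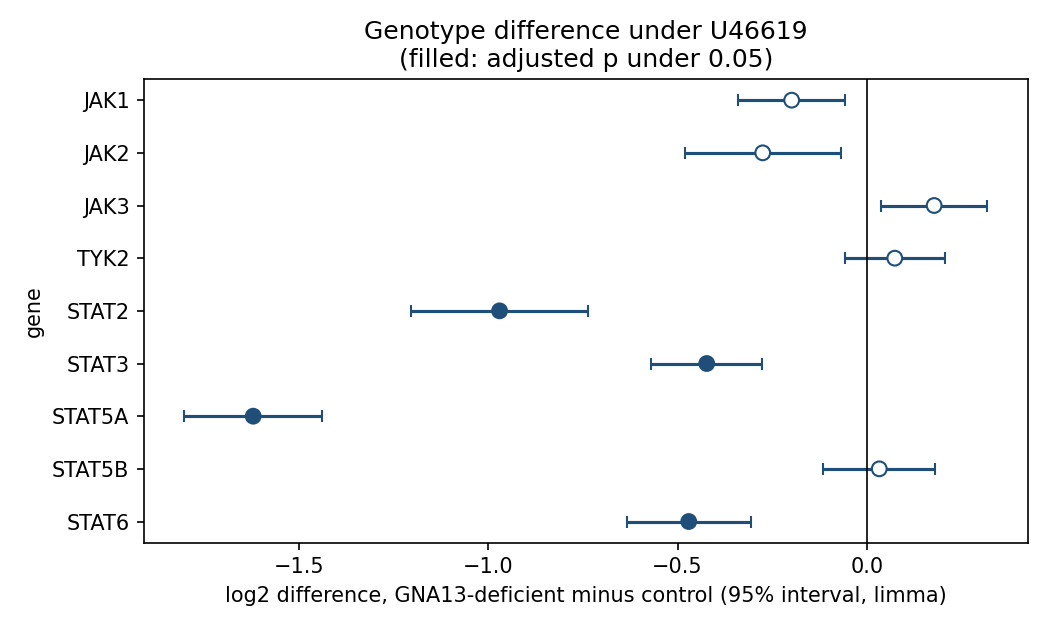
Log2 difference of GNA13-deficient minus control (horizontal axis) for each member (vertical axis), with bars for the 95% interval from limma over 2 libraries per genotype and filled points for adjusted p under 0.05. STAT5A (−1.62) and STAT2 (−0.97) lie farthest from 0, and the 4 kinases lie between −0.28 and 0.18.

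The small difference of JAK1 moved in opposite directions under the 2 other scalings between libraries. Quantile normalization put JAK1 at −0.34 (adjusted p = 0.00911), which passed as lower, and the 4 called STATs remained called and lower. Centring each library on its median added the same amount to every gene's difference, so that what it does to a member's sign follows from the size of that member's difference. It moved the median difference of all genes from −0.02 to 0.18, and JAK1 then stood at 0.01 (adjusted p = 0.910), on the other side of 0. JAK3 and TYK2 passed as higher in that fit, with differences of 0.39 (adjusted p = 0.00959) and 0.28 (adjusted p = 0.0170), as did STAT5B at 0.24 (adjusted p = 0.0254). In the same fit STAT5A, STAT2, STAT6 and STAT3 remained called and lower, with smaller differences of −1.41, −0.76, −0.26 (adjusted p = 0.0301) and −0.22 (adjusted p = 0.0414). As a common reference, GAPDH, a glycolytic enzyme named after its values were seen, differed by 0.49 (adjusted p = 0.0502), so no scaling on it was used.

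**Figure D3:**
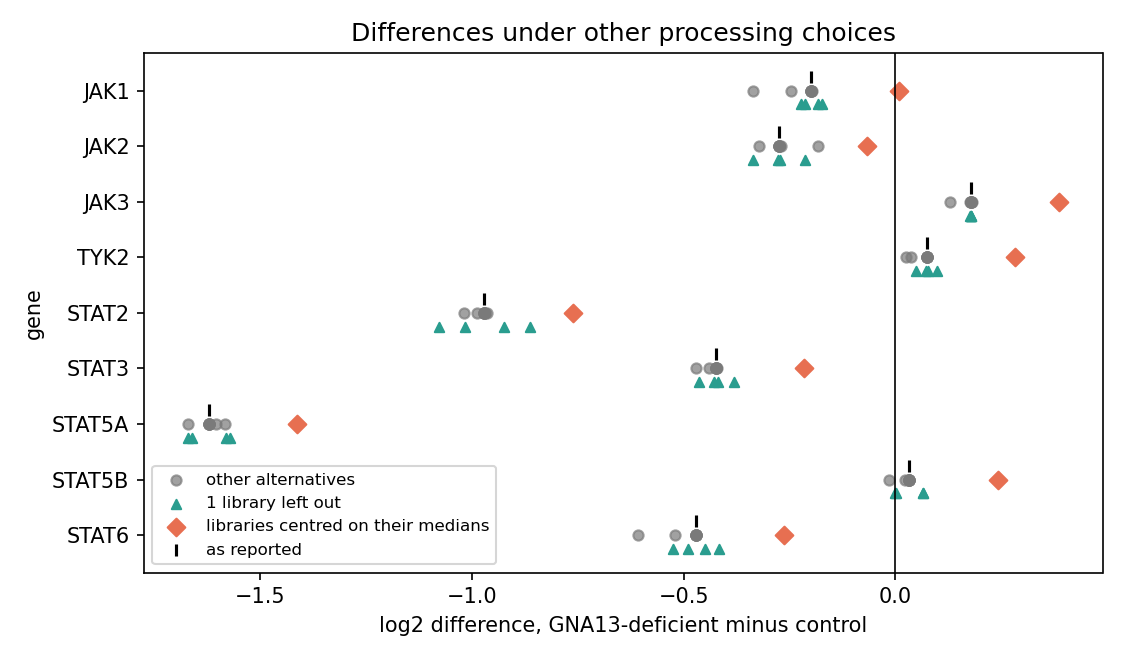
Log2 difference of GNA13-deficient minus control (horizontal axis) for each member (vertical axis) as reported (black ticks), with 1 library left out (triangles), with libraries centred on their medians (diamonds) and under the other alternatives (circles). The diamonds lie to the right for every member, by which JAK1 comes to 0.01, and STAT5A stays between −1.67 and −1.41.

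Levels can be compared between genes only per length. On the scale of normalized reads per kb of the canonical transcript, control means were 2435 for STAT6, 1646 for JAK1, 638 for TYK2, 606 for STAT2, 480 for STAT5A, 480 for STAT5B, 473 for STAT3, 221 for JAK3 and 94.7 for JAK2. STAT5A, STAT5B and STAT3 could not be ordered in the control genotype, since their libraries overlapped, and the other neighbours in the order did not overlap. In GNA13-deficient libraries the means per kb were 1756 for STAT6, 1434 for JAK1, 672 for TYK2, 491 for STAT5B, 352 for STAT3, 310 for STAT2, 250.0 for JAK3, 156 for STAT5A and 78.2 for JAK2, with no overlap between neighbours. STAT5A thus moved from the middle of the order to the next to last place, below JAK3, and STAT2 fell behind STAT5B and STAT3. With the union of all annotated exons as length, the order of STAT2, STAT3, STAT5A, STAT5B and JAK3 differed from this one, since the annotated lengths differ. STAT6 and JAK1 led, TYK2 followed and JAK2 was last with either length.

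On the deposited scaling the summed level of the STATs per kb was lower and that of the JAKs nearly kept. The 5 STATs together came to 4591 and 4355 normalized reads per kb in control and 3119 and 3012 in GNA13-deficient libraries, 68.5% of control. The 4 JAKs came to 2620 and 2579 in control and 2471 and 2398 in GNA13-deficient libraries, 93.6% of control. Within the STATs, the share of STAT5A was 10.8% ± 0.926 (SD, n = 2) in control and 5.09% ± 0.328 in GNA13-deficient libraries, and that of STAT5B was 10.7% ± 0.0733 and 16.01% ± 0.123. The share of STAT2 was 13.5% and 10.1%, that of STAT3 10.6% and 11.5%, and that of STAT6 54.4% and 57.3%. Within the JAKs, JAK1 made up 63.3% in control and 58.9% in GNA13-deficient libraries, TYK2 24.6% and 27.6%, JAK3 8.50% and 10.3%, and JAK2 3.64% and 3.21%. In none of these shares did the genotypes overlap, and the levels of 65.3% of all genes tested did not overlap either. The shares of a family add up to the whole, so they do not move separately. The log2 ratio of JAK2 to JAK3 was −0.78 and −0.90 in control and −1.30 and −1.29 in GNA13-deficient libraries.

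**Figure D4:**
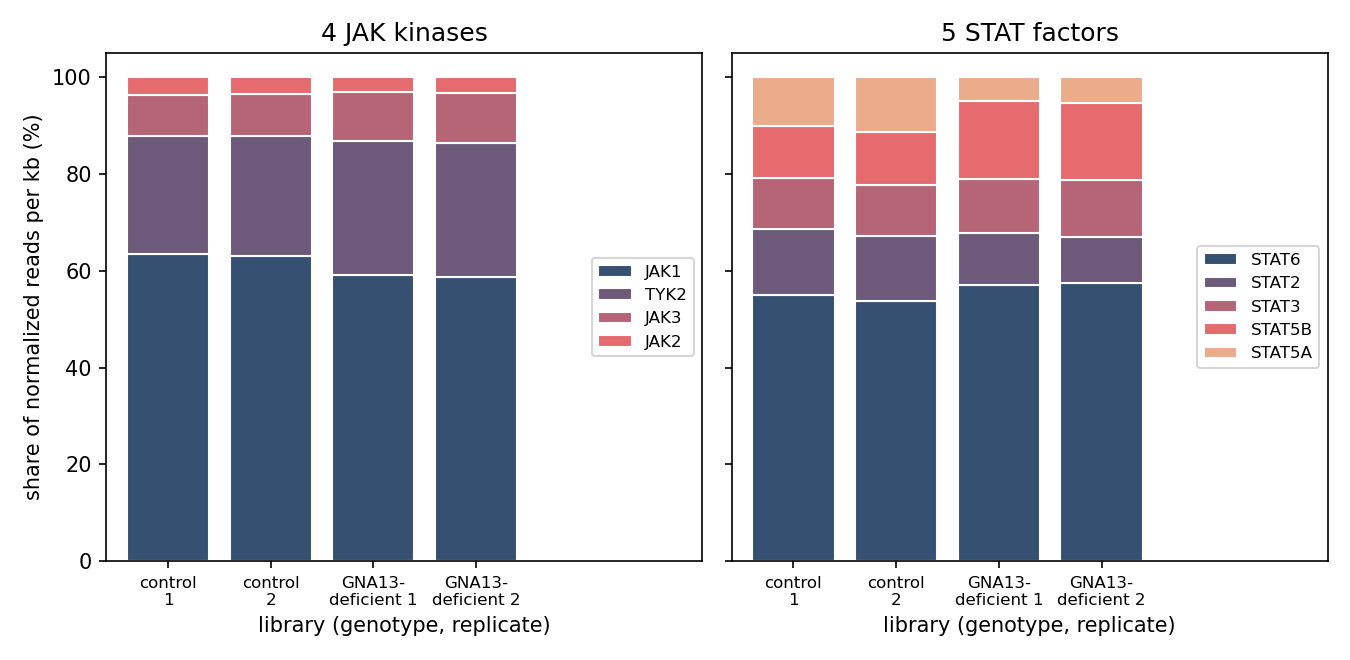
Share of normalized reads per kb (vertical axis, percent) taken by each member within the 4 JAK kinases (left) and the 5 STAT factors (right) in each library (horizontal axis). The mean share of STAT5A was 10.8% in control and 5.09% in GNA13-deficient libraries. That of STAT5B was 10.7% and 16.01%, while its own level per kb was nearly the same (means 480 and 491).

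The promoters were read for sequences that STATs or their complexes are known to bind, since 4 STAT genes fell together. RefSeq windows (GRCh38.p14) of 300 bases, from 250 before to 50 after a start site, matched all 9 members with 16 windows. Both strands were searched for TTCNNNGAA, the form bound by most STATs, for TTCNNNNGAA, the form STAT6 can also bind, and for GAAANNGAAA, the core bound by the complex of STAT2 and IRF9. These occurred in 7.66%, 6.44% and 3.57% of 35116 promoter windows of that length. Only 1 of the 16 member windows held any of them, TTCNNNNGAA in the most upstream of 3 STAT5A windows. It is printed here, plus strand, 5′ to 3′, with the match in capitals (bases 22 to 31 of the window, where the pattern matches on both strands).
STAT5A, chr17:42287189-42287488: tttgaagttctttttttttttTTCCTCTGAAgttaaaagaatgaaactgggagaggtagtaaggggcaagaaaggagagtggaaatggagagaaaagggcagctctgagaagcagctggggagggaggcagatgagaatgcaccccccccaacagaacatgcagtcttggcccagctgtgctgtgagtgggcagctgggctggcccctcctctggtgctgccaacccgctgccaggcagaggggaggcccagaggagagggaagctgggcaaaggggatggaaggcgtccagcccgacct
The window of STAT5B, the paralog without a called change, held none of the 3 sequences and is given for comparison, minus strand, 5′ to 3′.
STAT5B, chr17:42276342-42276641: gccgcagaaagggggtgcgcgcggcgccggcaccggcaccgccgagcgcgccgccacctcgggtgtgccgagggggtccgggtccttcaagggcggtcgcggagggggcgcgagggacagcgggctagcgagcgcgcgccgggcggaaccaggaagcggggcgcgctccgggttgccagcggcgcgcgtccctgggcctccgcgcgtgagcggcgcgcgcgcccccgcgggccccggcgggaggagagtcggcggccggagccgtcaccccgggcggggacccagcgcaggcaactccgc
A match is a description of the letters in a window and not of binding, and no binding was measured here.

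Cytokine receptor chains, the parts to which JAKs bind, were more often lower than higher. Of 39 chains, 30 were tested, 10 fell, 1 rose and 19 did not pass, where 16.6% of all genes were called lower and 13.1% higher. Their median difference was −0.24, and that of all genes tested −0.02. By the rule for named genes, IL13RA1, a chain of the IL-4 and IL-13 receptors, differed by −3.02 (adjusted p = 0.00425 from limma), with 125 and 151 reads in control and 13 and 20 in GNA13-deficient libraries. IL27RA, which binds IL-27, differed by −2.37 (adjusted p = 0.00306) and IL2RA, the alpha chain for IL-2, by −2.10 (adjusted p = 0.0064). IL23R, for IL-23, had 37 and 49 reads in control and 0 and 4 in GNA13-deficient libraries (adjusted p = 0.0152). It met the filter through the control libraries, where it was high, and kept its call under 7 of 9 alternatives. The call of IL23R, 1 of the 10 counted as lower, is therefore given no weight here. IL7R, the IL-7 receptor alpha chain, was the chain that rose, by 1.87 (adjusted p = 0.0131), from 14 and 13 reads to 54 and 41. None of these 5 exceeded 202 reads in any library.

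Further chains are named by their link to the members, after their values were seen. IL4R, the receptor chain on which STAT6 docks, differed by −0.24 (adjusted p = 0.0300), and IL10RA, whose signal STAT3 carries, by −1.32 (adjusted p = 0.00373). IFNAR1, the type I interferon receptor chain with the most reads of the list, fell by 0.33 (adjusted p = 0.0278), and its partner IFNAR2 had a difference of −0.11 (adjusted p = 0.460). IL21R had a difference of −0.04 (adjusted p = 0.710) and IL2RG, the chain that holds JAK3, one of −0.23 (adjusted p = 0.168). CSF2RB, the common beta chain that holds JAK2, fell by 0.83 (adjusted p = 0.00362). IL2RB, IL5RA, IL20RA, LIFR, OSMR and GHR were listed at 0 in all 4 libraries.

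Few cytokine genes were measured in these cells. Of 28 ligands, 13 were tested, 1 rose, 1 fell and 11 did not pass, where 13.1% of all genes were called higher and 16.6% lower. Among the ligands, 11 were listed at 0 throughout, including IL2, IL4 and IL21. THPO, thrombopoietin, had 110 and 96 reads in control and 16 and 4 in GNA13-deficient libraries, a difference of −3.61 (adjusted p = 0.0185 from limma). The ligand counted as higher was IL7, with 2 and 0 reads in control and 7 and 8 in GNA13-deficient libraries, counts too low for a fold change. It met the filter through the GNA13-deficient libraries, where it was high, and lost its call under 3 of 9 alternatives, so its call is given no weight here. OSM, oncostatin M, had the most reads of the ligands, with a mean log2 value of 6.07, and did not pass.

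Inhibitors of the pathway split in both directions. Of 20 tested, 2 rose, 2 fell and 16 did not pass, where 13.1% of all genes rose and 16.6% fell, with a median difference of −0.04 beside −0.02 for all genes. SOCS6, a SOCS box protein, had 61 and 47 reads in control and 4 and 5 in GNA13-deficient libraries, a difference of −3.51 (adjusted p = 0.00399 from limma). CBL, a ubiquitin ligase, fell by 1.01 (adjusted p = 0.00761). SOCS2, which is both a STAT5 target and an inhibitor, rose by 0.70 (adjusted p = 0.00420), and PIAS4, a SUMO ligase, rose by 0.45 (adjusted p = 0.00917). SOCS3 was listed at 0 in all 4 libraries. Among STAT partners and coactivators, 1 of 13 rose (KPNA3, a nuclear import factor, by 0.28, adjusted p = 0.0175) and 1 fell (STAM2, a signal adaptor, by 0.33, adjusted p = 0.02004), and their median was −0.12. IRF9, the partner of STAT2, named after its values were seen, had a difference of −0.24 (adjusted p = 0.383).

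Genes known as targets of STAT3, STAT5 and STAT6 did not move one way. Of 21 tested, 4 fell, 2 rose and 15 did not pass, counts near the 16.6% lower and 13.1% higher among all genes, with a median difference of −0.14. BCL6, the germinal center repressor, had log2 values of 10.75 and 10.90 in control and 8.23 and 8.44 in GNA13-deficient libraries, a difference of −2.49 (adjusted p = 0.000850 from limma). PRDM1, the plasma cell factor, fell by 1.85 (adjusted p = 0.00224), and PIM3, a survival kinase, by 0.50 (adjusted p = 0.00394). SOCS2 rose as given above, and MCL1, an inhibitor of apoptosis, rose by 0.26 (adjusted p = 0.0307). The remaining gene of the 4 that fell was IL4R. CISH, a feedback target of STAT5 named after its values were seen, had 25 and 20 reads in control and 40 and 47 in GNA13-deficient libraries, a difference of 1.03 (adjusted p = 0.0661).

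Receptor chains were more often lower than higher under every scaling tried, and the split of the other lists differed between scalings. With each library centred on its median, 6 receptor chains were lower and 3 higher, 2 inhibitors were lower and 6 higher, 0 partners were lower and 3 higher, and 3 target genes were lower and 5 higher. In that fit 11.4% of all genes were called lower and 25.4% higher, so the calls of the whole table moved the same way. Of the 17 pathway genes named by the rule, 5 (BCL6, PRDM1, PIM3, SOCS2 and IL27RA) were called under every alternative that kept 4 libraries and tested them. STAM2 lost its call with median centring, MCL1 with quantile normalization and with voom, and IL7 with voom, and the others lost it where no filter or no variance trend was used.

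**Figure D5:**
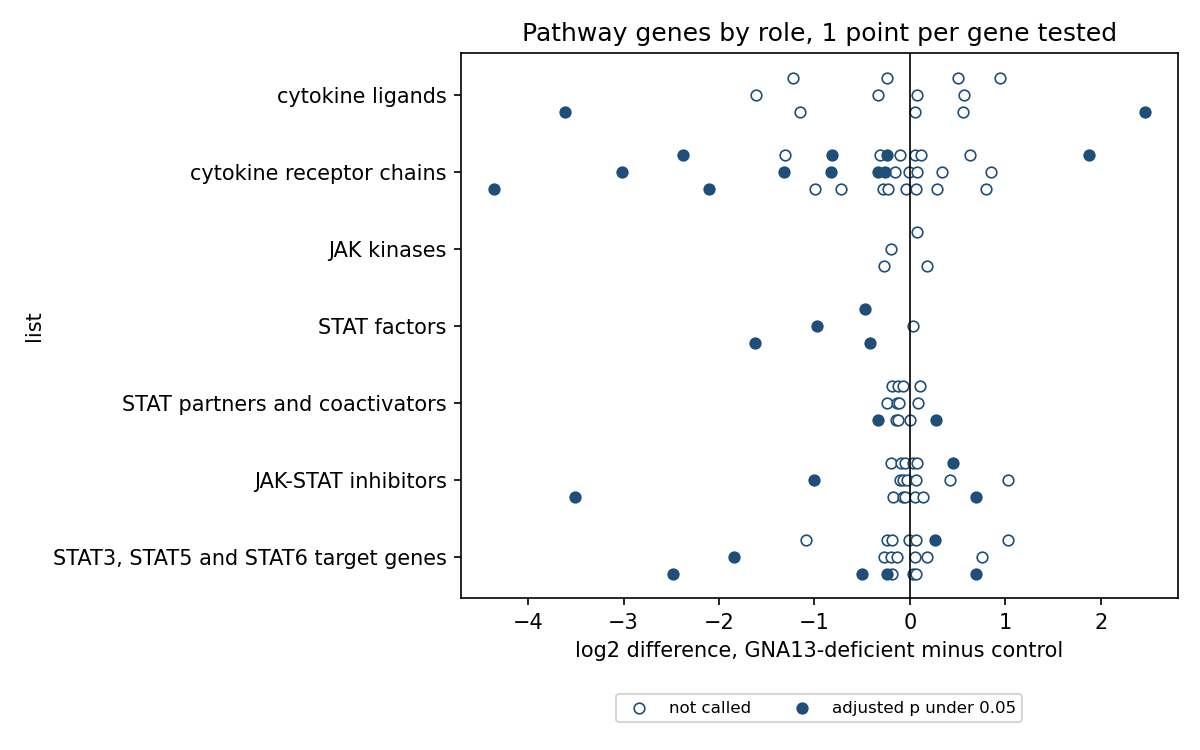
Log2 difference of GNA13-deficient minus control (horizontal axis) for every tested gene of 7 lists (vertical axis), filled where adjusted p was under 0.05, with heights inside a list only to separate points. The STAT factors hold 4 filled points below 0 of 5, and the receptor chains 10 below 0 and 1 above of 30.

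Markers were used to check the cell type in the labels. B cell markers were present, with most reads in CD79B at a mean log2 value of 14.24, and MS4A1 fell by 0.57 (adjusted p = 0.00477 from limma). Of 6 germinal center B cell markers, with most reads in MME at 14.03, LMO2 fell by 3.70 (adjusted p = 0.00169 from limma) and BCL6 fell as above, and the list summed to 19951 and 19112 normalized reads in control and 17778 and 17270 in GNA13-deficient libraries. T and NK cell markers were near 0, with CD3D, CD3E and CD2 at 0 in every library and list sums of 5.09, 6.89, 13.3 and 6.45 normalized reads. Myeloid markers summed to 228 and 242 normalized reads in control and 28.7 and 26.9 in GNA13-deficient libraries. LYZ had the highest mean log2 value, ITGAM the most reads in control, and FCGR3A was at 0. Of 4 myeloid markers tested, 2 (LYZ and ITGAM) fell, where 16.6% of all genes tested were called lower and 13.1% higher. Fibroblast and epithelial markers summed to 45.8 and 49.2 in control and 108 and 113 in GNA13-deficient libraries, most of it EPCAM, which rose, with KRT8 and KRT18 at 0. The myeloid sums were thus lower and the epithelial sums higher in the GNA13-deficient libraries, and their part in the results was not tested. Marker genes named here beyond the most abundant of each list were chosen after their values were seen.

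The genes nearest to STAT5A in pattern were SESN1, SLC2A5 and LRP5. Likeness was the Euclidean distance over the 4 libraries after each gene was centred on its own mean, among 8472 other genes whose mean reached the median gene's. Distances were 0.03 for SESN1, a stress-induced regulator of mTORC1, 0.05 for SLC2A5, a fructose transporter, and 0.06 for LRP5, a Wnt coreceptor. Their differences were −1.61, −1.65 and −1.57, beside −1.62 for STAT5A. With 4 libraries in 2 genotypes, such likeness mostly reads the size of the genotype difference.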

How the data were processed

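RNA from NUDUL1 cells was sequenced by the authors from 4 stranded poly(A) libraries, with paired reads whose length differs between the methods and the labels. Reads were aligned to hg19 with STAR, and the submitters' processing notes name HTSeq. The authors deposited log2 values of normalized reads per gene, and the normalization and annotation are not given in the sources used here. One deposited row, total mapped reads, is linear and served only for depth. Scaled by a constant per library, 99.987% or more of the linear values under 400 reads came out whole (within 0.01 read beyond the rounding of the deposited decimals); these reads give the depth behind a value.

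Genes above 0 in at least 2 libraries were fitted by limma 3.58.1 in R 4.3.3 (lmFit, eBayes with trend, genotype only, 2 residual degrees of freedom), without a pseudocount. Listed values of 0 can hide 1 read in control replicate 2. The steps were tested on simulated data. Lengths, overlaps and transcripts came from GENCODE (GRCh37) and promoters from RefSeq. IFNLR1 and IFNL1 were matched by Entrez ID under older symbols. Members and lists were chosen with earlier results of these data known. Named were all members, GNA13, per pathway list the 5 largest absolute differences among called genes without overlap, the most abundant marker of each list and the 3 genes nearest the most changed member; others are said to be chosen after their values were seen. Alternatives, voom on recovered reads among them, are given in the closing section. A gene of the B cell marker list is not reported here.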

Additional observations from a re-analysis of the deposited data

How the results depend on the processing

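STAT5A, STAT2, STAT3 and STAT6 stayed lower under each alternative. STAT5A was called in all 10 that kept 4 libraries; STAT2 lost its call without a filter (−0.97, adjusted p = 0.0519), STAT6 without a filter (−0.47, 0.0565) and without a variance trend (−0.47, 0.0547), and STAT3 without a trend (−0.42, 0.0572), where the differences did not change. JAK1 passed with a filter at the median (−0.20, 0.0342), a pseudocount of 10 (−0.20, 0.0495), quantile normalization (−0.34, 0.00911), a robust prior (−0.20, 0.0460) and voom (−0.25, 0.0318). It reversed with median centring (0.0095, 0.910). JAK2 passed with the median filter (−0.28, 0.0371) and JAK3 without a filter (0.18, 0.0236). Median centring left STAT6 at −0.26 and STAT3 at −0.22, both called, and made JAK3 (0.39), TYK2 (0.28) and STAT5B (0.24) called and 7 members in all. STAT5B reversed with voom (−0.0154, adjusted p = 0.912). Genes called numbered 5037 as reported, 1999 without a filter, 2718 without a trend (2 members called) and 5013 with voom. The share of calls that were higher was 44.03% as reported, 69.1% with centring and 54.6% with the median filter. That share was 36.3% without a trend, 38.0% with voom and 40.8% without a filter. List calls moved to 3 and 5 receptors (no filter, median filter), 0 ligands (both), 2 and 8 inhibitors (no filter, centring) and 4 partners (quantile).

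With replicate number as a block, 6616 genes and 7 members were called, with JAK1 (−0.20, adjusted p = 0.0127), JAK2 (−0.28, 0.0394) and JAK3 (0.18, 0.0445) added. Same-numbered libraries deviated together (correlation 0.453 over 8473 genes), but no source pairs them. With each library left out in turn (1 residual degree of freedom, the lone library assumed to vary like the others), limma called 0 genes (5257 to 5600 at an unadjusted p under 0.05), 0 members and 0 genes of every list, and differences ranged from −1.67 to −1.57 for STAT5A, −1.08 to −0.86 for STAT2, −0.46 to −0.38 for STAT3, −0.52 to −0.42 for STAT6 and 0 to 0.07 for STAT5B. The causes were not tested. Receptor and ligand genes with few reads have the least precise values, and 3 reads stand at log2 1.56 to 1.69.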

Other observations

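Neighbouring genes of STAT5A and STAT2, the members with the largest differences, were read for shared direction. Among all genes tested, 16.6% were called lower and 13.1% higher. Within 200 kb of STAT5A, 11 genes were tested, of which 3 were lower and 1 higher, with a median difference of −0.03. The lower ones were STAT3, DHX58, an interferon-induced RNA helicase (−1.21, adjusted p = 0.0493 from limma), and ATP6V0A1, a proton pump subunit (−0.35, adjusted p = 0.0307). KCNH4, a potassium channel, was higher by 1.31 (adjusted p = 0.0454). Within 200 kb of STAT2, 16 genes were tested, with 1 higher (TIMELESS, a replication fork protein, by 0.64, adjusted p = 0.00343) and 1 lower (RNF41, a ubiquitin ligase, by 0.45, adjusted p = 0.00503), and a median of 0.06. All genes in these windows were taken, and those named are the called ones, chosen after their values were seen.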
